A study of Mus musculus with 5 samples.

Results

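The BMP receptors and Smad proteins are the receiving machinery for bone morphogenetic proteins (BMPs), and 10 genes were chosen by symbol for this role. They are the type I receptors Bmpr1a, Bmpr1b and Acvr1, the type II receptors Bmpr2, Acvr2a and Acvr2b, the BMP-regulated Smads Smad1, Smad5 and Smad9, and the common Smad, Smad4. All 10 were in the table, as 14 of its 22227 transcripts and 10 of its 12588 gene sums. A BMP dimer brings type I and type II receptors together at the cell surface, and the type II kinase then phosphorylates the type I receptor. The activated type I kinase phosphorylates Smad1, Smad5 or Smad9, which bind Smad4 and act on target genes in the nucleus. In neural stem and progenitor cells (NSPCs) BMP signaling is known for restraining proliferation and favoring the astrocyte fate.

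The study asked how loss of the p75 neurotrophin receptor (p75NTR) alters NSPCs, and its stranded mRNA libraries were made from proliferating, otherwise untreated mouse NSPC cultures. Both groups were C57BL/6J cells kept in the same medium with FGF-2 and EGF at 20 ng/ml each. There were 2 libraries labelled WT (p75NTR+/+ litter mates, replicates 1 and 4) and 3 libraries labelled p75NTR-/- (homozygous for the p75NTR null allele, replicates 1, 2 and 4). The labels place the cells at E12.5, whereas the paper calls them adult NSPCs. The deletion is germline and is not limited to NSPCs, and no BMP was added to any library, so the values describe growing cultures before a BMP stimulus. The study describes 4 replicas from independent preparations, whereas 2 WT and 3 p75NTR-/- libraries were at hand.

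Ngfr, the gene that encodes p75NTR, went against the labels. Its normalized count, scaled by the authors' size factor for that library, was 0.98 and 2.08 in the libraries labelled WT. In those labelled p75NTR-/- it was 9.89, 141 and 251. The values in the libraries labelled WT rest on 1 and 2 counts. The log2 difference was 4.89 (SE 1.41, limma adjusted p = 0.93). A mutant transcript can keep reads outside a deleted exon, which was not tested here. Whether labels were exchanged was not tested, and each direction below is that of the labels and would turn if they were.

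Recovered totals lay between 11688211 and 14452396 counts, and 3 counts corresponded to 2.94 to 3.6 normalized counts. The replicate 4 libraries of both labels were the most alike pair, with a median absolute log2 difference of 0.0923 over 10786 genes of mean 50 or more. The p75NTR-/- replicates 1 and 2 followed with 0.145, and every pair across these 2 sets, or with WT replicate 1, lay between 0.258 and 0.346. The leading principal component (51.7% of variance) separated the number 4 libraries from the other 3, and the next one (36.5%) had WT replicate 1 at its end. Values within each replicate number are therefore given for the members. All 10 progenitor markers fixed for the cell type were listed, with Fabp7, a radial glia lipid carrier, at 35613 to 39744 normalized counts, whereas 0 of 8 microglia markers were listed.

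Coding sequence of the members is shown at the sites where the signal passes from one to the next. In the last 39 coding bases of the BMP-regulated Smads, stop codon included (GENCODE M21 models, GRCm38), the capitals mark the 4 codons of the serine tail that the type I kinase phosphorylates. Smad1 lies at chr8:79339649-79339687 (minus strand), Smad5 at chr13:56737440-56737478 (plus strand) and Smad9 at chr3:54797463-54797501 (plus strand), each within the last coding exon.
Smad1: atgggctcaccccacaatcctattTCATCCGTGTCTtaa
Smad5: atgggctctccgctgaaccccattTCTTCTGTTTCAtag
Smad9: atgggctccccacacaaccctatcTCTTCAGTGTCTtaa

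In the type I receptors, the capitals mark the repeated serine and glycine codons of the glycine-serine box, the stretch that the type II kinase phosphorylates. The 39 bases shown lie at chr14:34429659-34429697 for Bmpr1a, chr3:141862986-141863024 for Bmpr1b and chr2:58474222-58474260 for Acvr1, all on the minus strand.
Bmpr1a: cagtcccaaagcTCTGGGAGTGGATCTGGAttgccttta
Bmpr1b: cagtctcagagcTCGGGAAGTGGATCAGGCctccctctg
Acvr1: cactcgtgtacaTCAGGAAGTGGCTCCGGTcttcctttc

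The same repeat was in none of the 3 type II receptor coding sequences, and the serine tail was not in Smad4. No word of 31 bases was shared between listed transcripts of different members, and at most 56 of 5338 such words (Smad9) recurred in a transcript of any other gene. The longest coding run shared by any pair was 29 bases, between Smad1 and Smad9, whose coding sequences were identical at 78.8% of aligned bases.

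None of the 10 members passed the test between the labels. Of the 10 gene sums, 7 were lower and 3 higher on average in the libraries labelled p75NTR-/-, and 0 were called (limma on log2(normalized count + 1), adjusted p between 0.93 and 0.97). A call needed a mean of 50 or more, a fold change of 1.5 or more and an adjusted p under 0.05, and over all genes 1 of 12588 (0.00794%) met it. At an unadjusted p under 0.05 there were 0 members and 262 genes (2.08%). The members' median difference was -0.20, beside 0.00 for all genes. In bulk RNA, fewer cells of a type and less RNA per cell cannot be told apart.

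**Figure D1:**
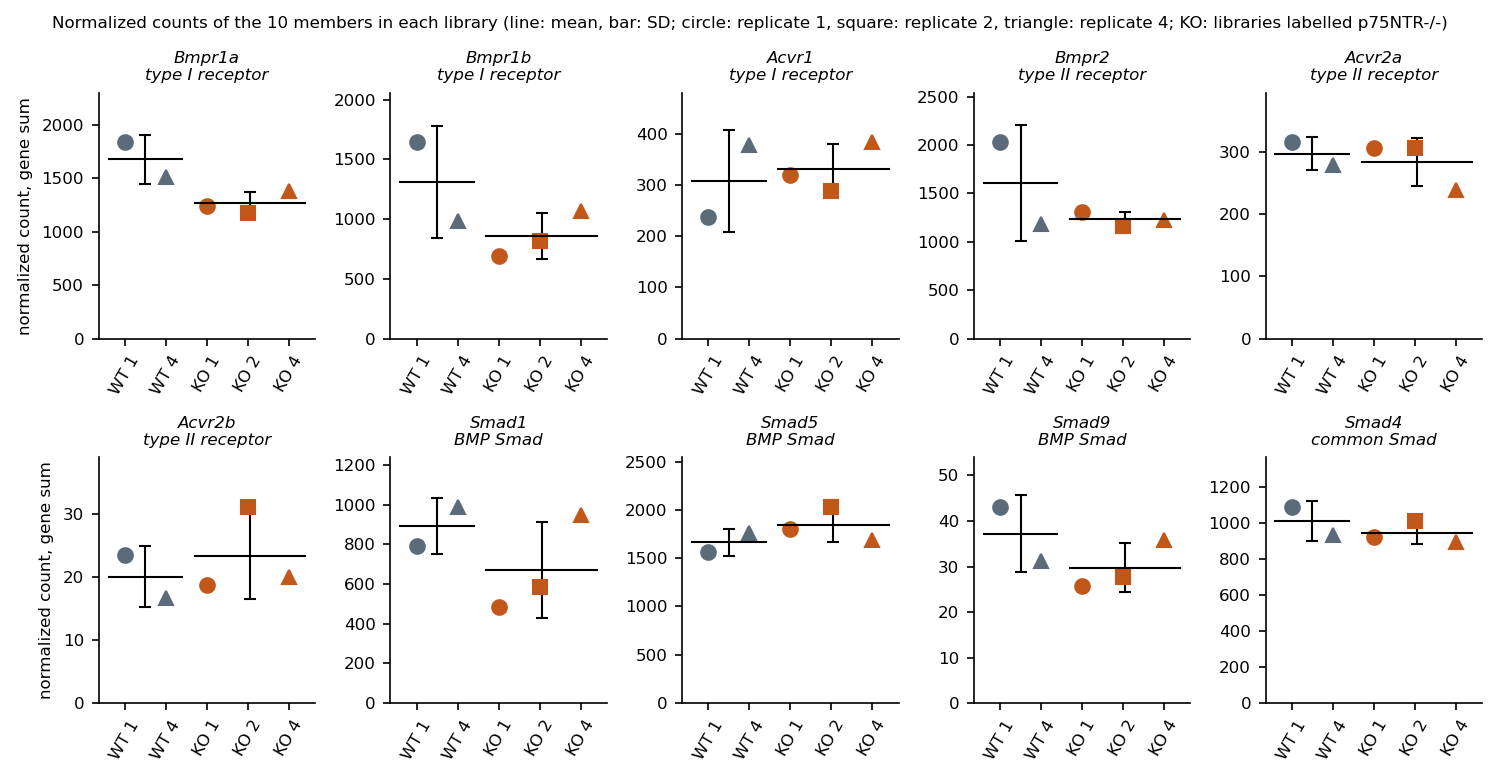
Each panel plots the gene sum of normalized counts of 1 member (y axis, from 0) in the 5 libraries (x axis; KO: labelled p75NTR-/-), with the mean as a line and the SD as a bar for each label. Bmpr1a is the only panel in which the 2 labels do not overlap. Smad1 and Acvr1 are highest in both triangles, the replicate 4 libraries.

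Bmpr1a, a type I receptor for BMP-2 and BMP-4 that is widely expressed in neural progenitors, was the only member whose libraries did not overlap between the labels. It had 1841 and 1518 normalized counts in the WT libraries and 1245, 1179 and 1383 in the p75NTR-/- libraries. Both WT libraries were thus above each p75NTR-/- library, with means of 1679 ± 229 (SD, n = 2) and 1269 ± 104 (SD, n = 3). The log2 difference was -0.40 (SE 0.18, 95% interval -0.87 to 0.06), and limma gave an adjusted p of 0.93. Of 10786 genes of mean 50 or more, 751 (6.96%) were lower without overlap, beside 1 of the 8 members of that level. The difference was -0.56 within replicate number 1 and -0.13 within replicate number 4, and -0.60 without both number 4 libraries (adjusted p = 0.16).

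Bmpr1b, the type I receptor more restricted in its expression and a receptor for several GDFs, varied most among the members of mean 50 or more, with an SD of 0.47 on the log2 scale over the 5 libraries. It had 1645 and 980 normalized counts in the WT libraries and 691, 815 and 1071 in those labelled p75NTR-/-. WT replicate 1 was the highest library, and p75NTR-/- replicate 4 lay above WT replicate 4, so the labels overlapped. The difference of -0.59 (SE 0.32, 95% interval -1.40 to 0.23, adjusted p = 0.93) was the only one past 1.5-fold, a size that 8.31% of genes of mean 50 or more reached. It was -1.25 within number 1 and 0.13 within number 4, and leaving out WT replicate 1 reduced it to -0.21.

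Acvr1, the type I receptor for BMP-6, BMP-7 and activin complexes, had 237 and 379 normalized counts in the WT libraries. In the p75NTR-/- libraries it had 321, 290 and 385. Both number 4 libraries lay above the other 3, which held for 23.0% of genes of mean 50 or more. The log2 difference of 0.13 (SE 0.27, 95% interval -0.56 to 0.83) was smaller than its error and turned to -0.20 without WT replicate 1. It was 0.43 within number 1 and 0.02 within number 4.

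The type II receptors overlapped between the labels. Bmpr2, the long-tailed type II receptor that binds BMPs in preference to activins, had 2031 and 1183 normalized counts in the WT libraries and 1313, 1165 and 1223 in the p75NTR-/- libraries. The other 4 libraries lay between 1165 and 1313, and WT replicate 1 stood above them. The difference of -0.33 (SE 0.27, 95% interval -1.03 to 0.37) became 0.06 without WT replicate 1 and -0.72 without WT replicate 4, and was -0.63 within number 1 and 0.05 within number 4. Acvr2a, which binds activins and BMPs alike, had 316 and 279 against 307, 306 and 239 normalized counts, with both number 4 libraries below the other 3 (22.0% of genes of mean 50 or more). Its difference of -0.07 (SE 0.20) reversed to 0.02 without WT replicate 1 and to 0.05 without p75NTR-/- replicate 4, and was -0.04 within number 1 and -0.22 within number 4. Acvr2b, its close relative, stood at 23.6 and 16.6 against 18.8, 31.2 and 20.1 normalized counts, below the mean of 50 that a call required. Its difference of 0.19 (SE 0.30) took the opposite sign, -0.05, without WT replicate 4, and was -0.31 within number 1 and 0.26 within number 4.

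Among the BMP-regulated Smads, Smad1 varied with the replicate 4 libraries. It had 793 and 990 normalized counts in the WT libraries and 484, 586 and 946 in those labelled p75NTR-/-. Replicate 4 was the highest library of each label, and p75NTR-/- replicates 1 and 2 were the lowest of all. Both number 4 libraries lay above the other 3, as they did for 23.0% of genes of mean 50 or more. The log2 difference was -0.46 (SE 0.33, 95% interval -1.32 to 0.40), with -0.71 within number 1 and -0.07 within number 4. Without p75NTR-/- replicate 4 it was -0.73 (adjusted p = 0.43).

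Smad5, which has the same place in the pathway as Smad1, was the BMP Smad with the smallest difference. It had 1563 and 1765 normalized counts against 1803, 2035 and 1691, a difference of 0.15 (SE 0.17, 95% interval -0.30 to 0.59). WT replicate 1 was its lowest library and p75NTR-/- replicate 2 its highest, and the sign differed between number 1 (0.21) and number 4 (-0.06). Smad9, also called Smad8, was near the low end with 43.2 and 31.2 against 25.7, 27.6 and 35.9 normalized counts. Its difference was -0.31 (SE 0.24), and it was -0.72 within number 1 and 0.20 within number 4.

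Smad4, the partner shared by BMP and TGF-beta signaling, varied least of the 10 members. It had 1092 and 933 normalized counts in the WT libraries and 925, 1010 and 897 in the p75NTR-/- libraries, a 1.22-fold span from lowest to highest. The difference of -0.10 (SE 0.17, 95% interval -0.53 to 0.34) became 0.02 without WT replicate 1, and was -0.24 within number 1 and -0.06 within number 4.

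**Figure D2:**
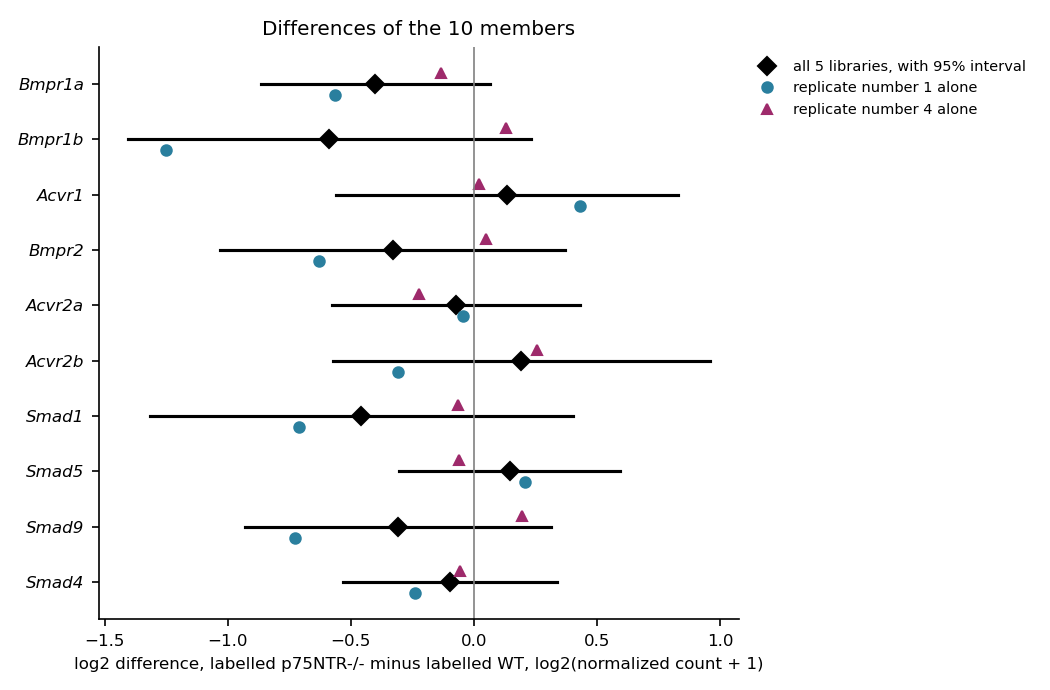
The x axis gives the log2 difference of each member (rows), labelled p75NTR-/- minus labelled WT, with its 95% interval from limma over all 5 libraries, and the difference between the replicates of number 1 (circle) and of number 4 (triangle) alone. All 10 intervals span 0, and for Bmpr1b the 2 replicate numbers lie on opposite sides, at -1.25 and 0.13.

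The intervals limit what these libraries can show. Across the 10 members, the lowest bound allows a level in the p75NTR-/- libraries of 0.378 times that of the WT libraries (Bmpr1b) and the highest one of 1.94 times (Acvr2b). Changes up to these sizes could not be told from no change, and a p that misses the threshold does not show equal levels. The pair of number 4 libraries was closer, with differences of at most 0.223 in size for the 8 members of mean 50 or more.

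Bmpr1a and its relatives were listed with more than 1 transcript, and a short Bmpr1a transcript had a larger log2 difference than the full-length one, at -0.87 against -0.38 (the gap between them was not tested). Bmpr1a-201 (chr14:34410734-34502687, 13 exons, 5956 bases) held 90.6% to 92.9% of the gene sum. Bmpr1a-204 (chr14:34443933-34502528, 5 exons, 641 bases, with its coding sequence cut off at the 3' end in the annotation) had 76.5 and 68.7 normalized counts in the WT libraries. It had 40.6, 34.8 and 42.3 in the p75NTR-/- libraries, all below both WT libraries. Behind these values were 29 to 78 counts in each library.

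The log2 difference of Bmpr1a-204 was -0.87 (SE 0.20, 95% interval -1.41 to -0.34, unadjusted p = 0.0099, limma adjusted p = 0.96). At an unadjusted p under 0.05 were 699 of 22227 transcripts (3.14%), and 3 (0.0135%) were called. Its share of the gene sum was 4.16% and 4.52% in the WT libraries and 3.26%, 2.96% and 3.06% in the p75NTR-/- libraries, again without overlap. It was lower within both replicate numbers, by -0.90 and -0.69, and lay between -0.95 and -0.79 when any 1 library was left out. Without overlap between the labels, these signs could not turn. Bmpr1a-201 and Bmpr1a-204 were the 2 of 10 member transcripts of mean 50 or more that were lower without overlap, as were 7.4% of all transcripts of that mean, and 0 member transcripts were higher without overlap (8.77% of all). Bmpr1a-203, another short model, overlapped between the labels (96.2 and 58.3 against 48.5, 49.3 and 72.9 normalized counts).

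Bmpr1b-201 held 94.8% to 97.3% of the Bmpr1b sum. The rest was Bmpr1b-205, a model annotated for nonsense-mediated decay, at 50.1 and 26.0 against 28.7, 42.1 and 40.1 normalized counts. Acvr1-203 held 93.7% or more of the Acvr1 sum in each library. The short Acvr1-205 had 10.8 and 23.9 against 11.9, 0 and 13.7 normalized counts, and the 0 counts of p75NTR-/- replicate 2 allow up to 3.6. The other 7 members each had 1 listed transcript, so isoforms could not be compared for them.

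Levels between genes were compared only per transcript length. As TPM, a transcript abundance scaled for length and depth, summed over the listed transcripts, Bmpr1a led with 156 ± 46.02 (SD, n = 5), followed by Bmpr1b with 63.99 ± 18.04 and Smad5 with 58.3 ± 6.33. Smad4 (27.6 ± 2.33), Smad1 (26.9 ± 7.57) and Bmpr2 (18.9 ± 4.94) came next. Lower were Acvr1 at 11.5 ± 2.81 and Acvr2a at 8.44 ± 0.988 TPM, and Smad9 (1.35 ± 0.285) and Acvr2b (0.804 ± 0.216) were at the end.

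The order within the upper 5 turned on the short models. Of the Bmpr1a sum, 103 TPM came from Bmpr1a-204, which is assigned few reads. It had 0.51 normalized counts per TPM, beside 35.5 for Bmpr1a-201. That gap is wider than the gap between their annotated lengths (641 and 5956 bases), and its source was not tested. When only the transcript with the most counts was taken for each gene, Smad5 led with 58.3 TPM and lay above Bmpr1a (37.0) in every library. Bmpr1a, Bmpr1b (30.2), Smad4 and Smad1 then overlapped with their neighbours. On normalized counts per kilobase, Bmpr1a (390 ± 89.5) was ahead of Smad4 (287 ± 23.5), Smad5 (269 ± 26.3), Smad1 (245 ± 71.2) and Bmpr1b (206 ± 71.0), and these 5 again overlapped in turn. This scale sums each listed transcript over its own length, so the short Bmpr1a models weigh heavily in it too. The lead of Bmpr1a here also rests on them. On each of the 3 scales, Acvr2a lay above Smad9 and Acvr2b in every library, and those 2 overlapped with each other. Per kilobase, Bmpr1a with its short models stood at percentile 76.7 of all genes and Acvr2b at percentile 7.21.

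**Figure D3:**
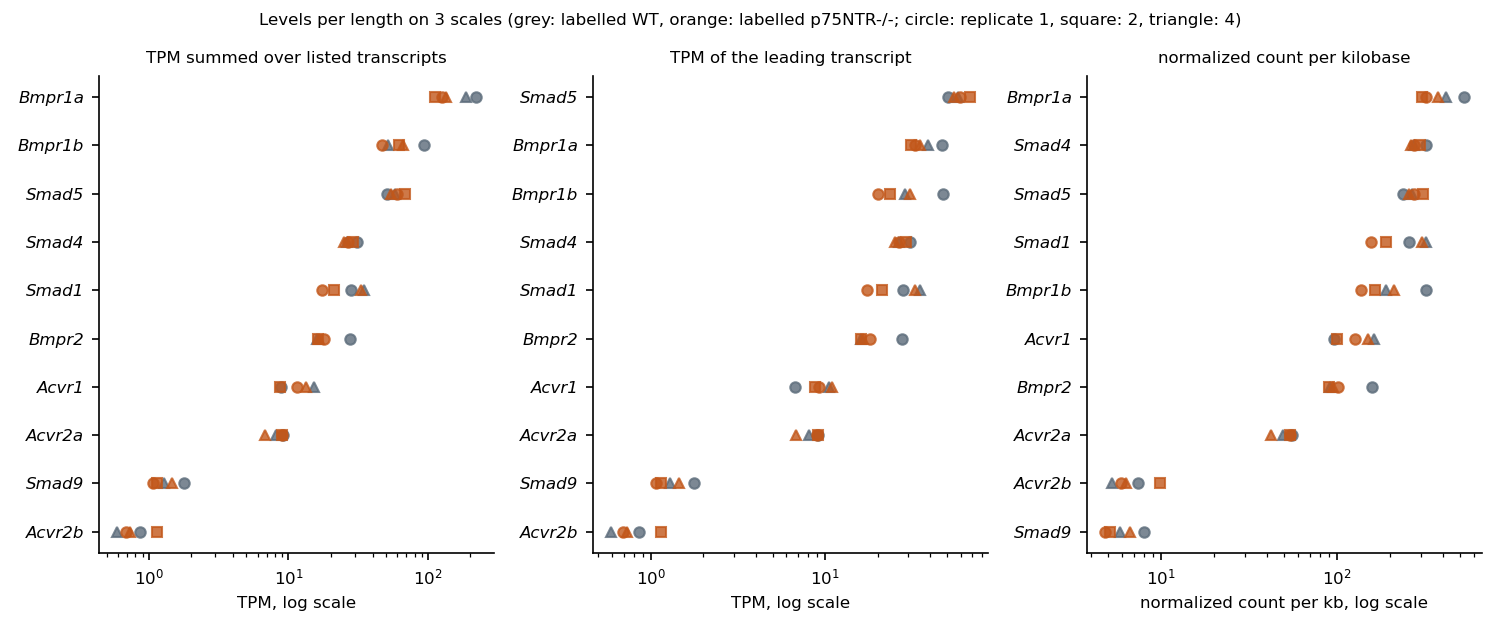
The x axes (log scale) give the level of each member in the 5 libraries as TPM summed over transcripts, TPM of the leading transcript and normalized count per kilobase, with rows in the order of the means. Bmpr1a leads the first and last panels, which include its short models, and Smad5 the middle one. Smad9 and Acvr2b are last in all 3.

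Within a library, the make-up of each group can be read without comparing totals between libraries. Per kilobase, Bmpr1a made up 50.9% to 55.8% of the type I receptor level in all 5 libraries. Bmpr1b made up 34.1% and 24.8% of it in the WT libraries and 23.5%, 29.0% and 28.7% in the p75NTR-/- libraries. Acvr1 took 10.1% in WT replicate 1 and between 17.6% and 21.5% in the other 4. The Bmpr1a share includes its short models. On the TPM of the leading transcript, Bmpr1a lay below Bmpr1b in WT replicate 1 (46.7 against 47.8) and above it in each other library. Among the type II receptors, Bmpr2 held between 58.6% and 71.4%, highest in WT replicate 1. Acvr2b held 3.36% and 3.59% in the WT libraries and 3.66%, 6.39% and 4.42% in the p75NTR-/- libraries, the only one of these shares without overlap, at no more than 31.2 normalized counts.

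The balance between Smad1 and Smad5 split the libraries by more than their label. Smad1 made up 51.0% and 53.8% of the BMP Smad level in the WT libraries, and 35.9%, 37.6% and 53.7% in those labelled p75NTR-/-. The shares of both replicate 4 libraries were thus close to each other, and the other 2 p75NTR-/- libraries lay lower. Smad5 over Smad1 was 0.928 and 0.839 in the WT libraries and 1.75, 1.63 and 0.842 in the p75NTR-/- libraries. Smad9 was between 0.980% and 1.6% of the BMP Smad level throughout.

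The summed type I receptor level was 946 and 771 normalized counts per kilobase in the WT libraries and 586, 569 and 739 in the p75NTR-/- libraries, which did not overlap. Bmpr1a is the main part of this sum and was itself lower without overlap, as were 6.96% of genes of mean 50 or more. The sum is thus not a separate result. The sum of type I over the sum of type II receptors ranged from 3.62 to 5.28 and overlapped between the labels. With 2 against 3 libraries, an exact permutation test over the libraries cannot give a p below 0.1 (1 of 10 ways to split them), and these shares and ratios are given as a description.

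**Figure D4:**
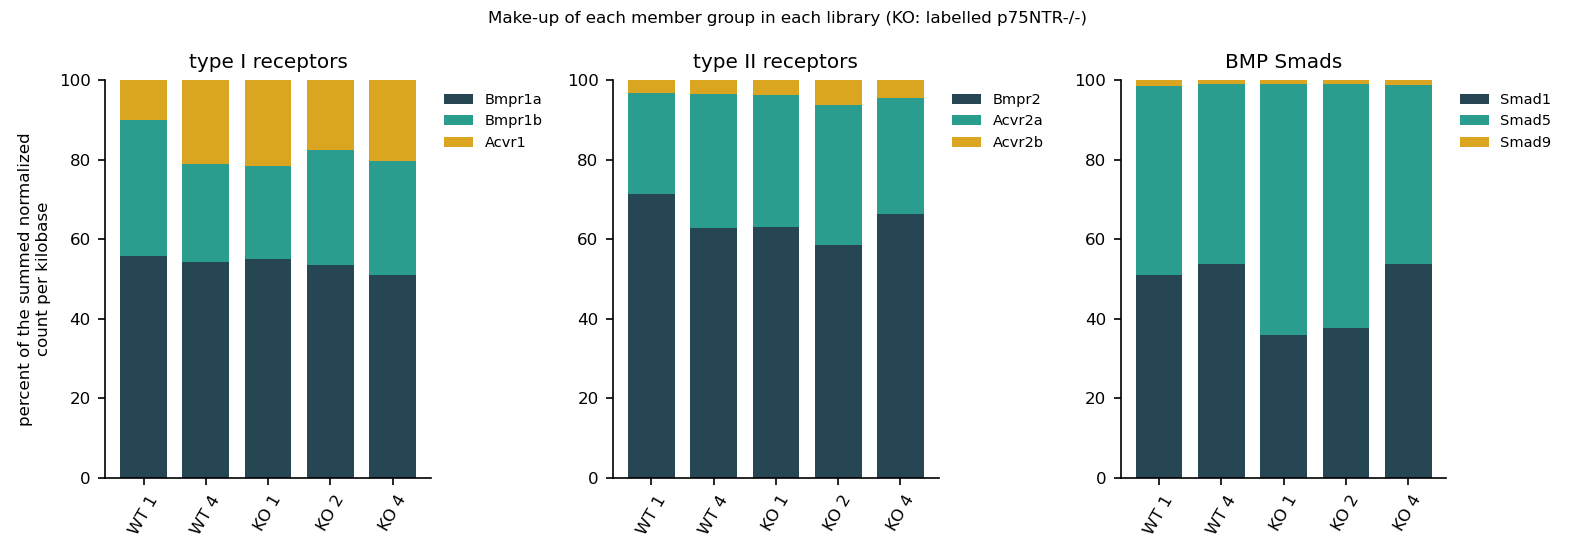
Stacked bars give the percent of each group's summed normalized count per kilobase (y axis, 0 to 100) that each member holds in each library (x axis; KO: labelled p75NTR-/-). The Smad1 part is 51.0% to 53.8% in both WT libraries and in p75NTR-/- replicate 4, and 35.9% and 37.6% in p75NTR-/- replicates 1 and 2.

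The profile of Bmpr1b, the member that varied most, was most like those of Ptprt, a receptor-type tyrosine phosphatase, Drc3, a component of motile cilia, and Dennd4a. Likeness was the root mean square distance between centred log2 values over the 5 libraries, at 0.016, 0.024 and 0.036 for these 3 among 10785 genes. Of the other members, Bmpr1a was nearest at 0.23 (rank 474), followed by Bmpr2 at 0.26 (rank 734). With 5 libraries, many genes follow a given profile closely.

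The rest of the pathway was read from lists of its parts. None of the genes in any list was called in either direction. Of the 20 BMP and GDF ligands in the list, 5 were in the table, and Bmp4 and Bmp6 were not among them. Bmp7, a ligand of Acvr1 and the type II receptors, was the highest with 551 and 909 normalized counts in the WT libraries and 906, 1001 and 935 in the others (log2 difference 0.42, SE 0.26), and Gdf11 had 437 and 414 against 326, 316 and 410 (-0.29, SE 0.19). The median of the 5 was -0.16, beside 0.00 for all genes.

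Of 20 BMP antagonists, 11 were listed, with a median of -0.19, and the 2 highest pointed opposite ways. Crim1, a membrane protein that binds BMPs, had 694 and 537 normalized counts in the WT libraries and 2344, 1177 and 603 in those labelled p75NTR-/-. Its difference of 0.96 (SE 0.59, adjusted p = 0.93) did not pass, and p75NTR-/- replicate 4 lay between the WT libraries. Nbl1, a secreted DAN family antagonist, had 1544 and 907 against 463, 556 and 925 normalized counts (-0.93, SE 0.40, adjusted p = 0.93). It also overlapped, through both number 4 libraries.

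Among co-receptors and receptor-level modulators (8 of 10 listed, median -0.02), Neo1, the receptor for repulsive guidance molecules, was highest. It had 3086 and 2910 normalized counts against 2814, 2404 and 2766, lower by only 0.17 on the log2 scale. The labels did not overlap, and 6.96% of genes of mean 50 or more were lower without overlap. Fkbp1a, which holds type I receptors inactive by binding near the glycine-serine box printed above, had 1217 and 2282 against 1950, 2033 and 2264. Rgma, a BMP co-receptor, had 2909 and 1141 against 613, 1432 and 1240 normalized counts, with WT replicate 1 far above the rest.

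All 20 inhibitory Smads and Smad regulators were listed, 16 of them lower and 4 higher, with a median of -0.14. Usp9x, a deubiquitinase that acts on Smad4, had 4657 and 2907 against 2998, 2963 and 3135 normalized counts. Stub1, a ubiquitin ligase that acts on Smads, had 1106 and 1642 against 1775, 1770 and 1576. Ctdspl, a Smad phosphatase relative, had the largest difference of those with a mean of 50 or more, at -0.54 (SE 0.39). Smad6, an inhibitory Smad and itself a BMP target, was the only list gene of the pathway with an unadjusted p under 0.05, and is named for that after its values were seen. It had 2.94 and 4.16 normalized counts in the WT libraries and 0, 1.2 and 1.06 in the others, at or near the limit of 3 counts, so no fold is given.

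Of 20 BMP target genes 16 were listed, 11 lower and 5 higher on average. The labels did not overlap for Bambi, a decoy receptor (37.3 and 66.6 against 85.1, 88.9 and 67.6 normalized counts), nor for the low Dlx2 (14.7 and 15.6 against 3.96, 12.01 and 13.7) and Smad6. Bambi and Dlx2 are named for that after their values were seen. Of the 16, 2 were thus lower and 1 higher without overlap, beside 948 lower and 946 higher of all 12588 genes. The list median was -0.38 over all 16 and 0.10 over the 9 with a mean of 50 or more. Lfng, a Notch modifier, had 2304 and 1653 against 2772, 2590 and 1751 normalized counts. Id2, a repressor of basic helix-loop-helix factors, had 1176 and 805 against 258, 466 and 910 (-1.02, SE 0.56). Gfap, the astrocyte filament gene, had 241 and 680 against 11.9, 1.2 and 746. The lowest libraries for Id2 and Gfap were p75NTR-/- replicates 1 and 2, which were also the lowest for Smad1. Id1 and Id3, from the same list, were instead highest in p75NTR-/- replicates 1 and 2, and are named after their values were seen. Id1 had 156 and 69.7 against 170, 222 and 94.0 normalized counts, and Id3 613 and 251 against 692, 1113 and 248. A link between Smad1 and these genes was not tested.

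The parallel TGF-beta and activin branch (5 of 8 listed, median 0.10) held Smad2 at 789 and 727 against 892, 752 and 804 normalized counts. Tgfbr2, the type II receptor for TGF-beta, had 102 and 128 against 233, 142 and 129, higher without overlap (as were 7.76% of genes of mean 50 or more) with a difference of 0.50 (SE 0.31). All 15 nuclear transport and DNA partner genes were listed (median 0.04), the highest being the importin Kpnb1 and the exportin Xpo1. Kpnb1 had 4539 and 7213 against 7380, 6973 and 7082 normalized counts, and Xpo1 2818 and 5434 against 4167, 4028 and 5434. Zfp423, a DNA-binding partner of the BMP Smads, had 383 and 242 against 131, 280 and 209 (-0.63, SE 0.40). All 11 genes of the non-Smad arm were listed (median -0.09), led by Tab2 and by Map3k7, the TAK1 kinase, whose differences were -0.19 (SE 0.23) and 0.13 (SE 0.19), and Map2k3 differed most, by 0.32 (SE 0.28).

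**Figure D5:**
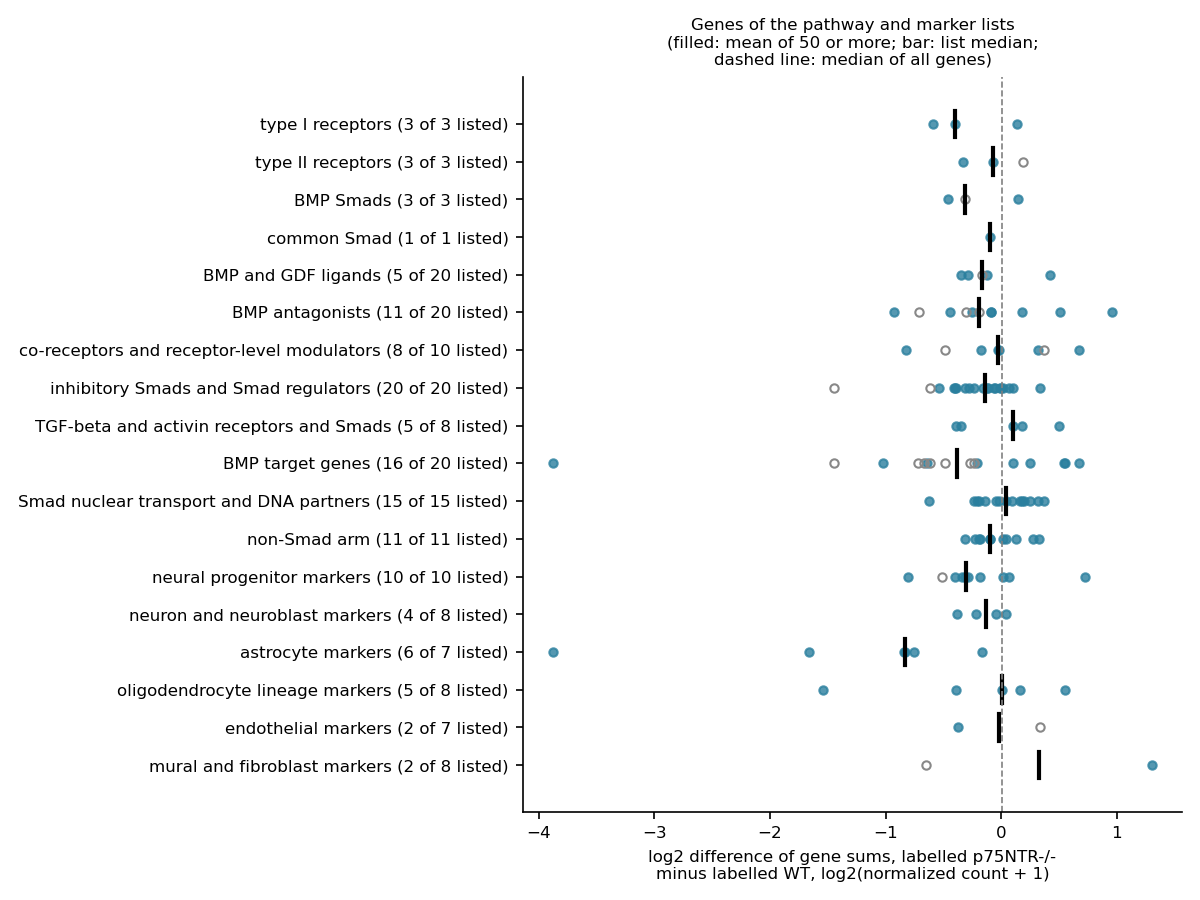
Each point is the log2 difference of 1 listed gene (x axis, labelled p75NTR-/- minus labelled WT), by list (rows, with the number listed), filled where the mean was 50 or more, with the list's median as a bar and the median of all genes as a dashed line. The astrocyte marker median lies at -0.84, and the medians of the pathway lists lie between -0.40 and 0.10.

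Cell type markers varied between libraries as well. The 10 progenitor markers (7 lower, 3 higher) had a median difference of -0.30 and summed to between 90868 and 120840 normalized counts. Vim, a filament gene of radial glia, was highest in both number 4 libraries (40938 and 44562 against 20556 to 23981 in the other 3). Nes, which encodes nestin, had 8704 and 13101 against 23123, 17844 and 13413 (0.73, SE 0.32). It was higher without overlap, as were 7.76% of genes of mean 50 or more. Slc1a3, from the same list, went the other way, with 17930 and 18280 against 14544, 11597 and 17342 (-0.34, SE 0.22). It was lower without overlap, as were 6.96% of genes of mean 50 or more. Nes and Slc1a3 are named after their values were seen. Of 7 astrocyte markers 6 were listed, all lower in the p75NTR-/- libraries on average with a median of -0.84, and 0 were called. Their summed level was 37169 and 31614 normalized counts in the WT libraries and between 21407 and 34575 in the p75NTR-/- libraries. Aldh1l1 and Aldoc were the highest, and Aldoc, a glycolytic enzyme of astrocytes and radial glia, had 9882 and 5914 against 3622, 3931 and 5541 (-0.83, SE 0.32). The 5 listed oligodendrocyte lineage markers of 8 summed to 4807 and 2347 in the WT libraries and to between 2376 and 5793 in the others. The sums were lowest in both number 4 libraries, and Sox10, Mbp and Mog were not listed. Neuron and neuroblast markers (4 of 8) summed to 5833 to 9564 over the 5 libraries, with Dcx and Rbfox3 not listed. Endothelial (2 of 7) and mural or fibroblast markers (2 of 8) summed to at most 284 and 260 normalized counts, with Pecam1, Cdh5 and Pdgfrb not listed. The part of these markers in the values of Bmpr1a, Smad1 or any other member was not tested.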

How the data were processed

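Reads of 5 mouse NSPC libraries (2 labelled WT, 3 labelled p75NTR-/-) were quantified by the authors with Salmon 0.10.2 on Ensembl transcripts (GRCm38.p6), followed by normalization with DESeq2 1.22.0 in R 3.6.1. The deposited signal of each library is the count divided by a size factor, plus 0.5, which was subtracted here. The deposited TPM is a score in this table, since 303 repeated lines raise its column sums, and these lines were dropped (22530 lines, 22227 transcripts). All library columns were used (0 unused). The columns of the authors' own comparison (mean, fold change, p-values) were not used.

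limma 3.58.1 (R 4.3.3) was run over all 12588 gene sums and over all 22227 transcripts on log2(normalized count + 1), with Benjamini-Hochberg adjustment, all 5 libraries and no covariate. The criteria for a call are those of the paper's methods. The procedure was tested on simulated data. In each library 100% of values up to 2000 were whole multiples of one step within 0.1 of a count. This gave the totals of 11688211 to 14452396 counts and the limit of 3 counts, which covers counting error only. The step appears only after 0.5 is subtracted, so the deposited values as they stand were not treated as counts, and the planned count tests were not run. The recovered counts were used for the totals, the limit, the counts given for single transcripts and the TMM scaling. Coordinates come from GENCODE M21 (GRCm38), matched by identifier for 22199 transcripts (99.9%).

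The members and lists were chosen with earlier results of these data known. Named genes are the 10 members, Ngfr, of each list the 2 highest and the one of mean 50 or more with the largest difference, called genes (0 in the lists), and the 3 genes nearest to the most variable member. Alternatives were other pseudocounts (0.5, 5), minimum means (10, 50) and scalings, TPM, a replicate block, and leaving out libraries. The fit with a trend of the prior variance, the TPM of the leading transcript and leaving out both number 4 libraries were chosen after seeing the data.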

Additional observations from a re-analysis of the deposited data

How the results depend on the processing

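No member was called under any alternative, with adjusted p between 0.15 and 1.0 over all settings for the gene sums. The count of called genes (1 of 12588) became 0 under TPM, with the replicate block and without both number 4 libraries, and was 0 to 1 when any 1 library was left out. The count of called transcripts (3) became 0 with a pseudocount of 5, with the replicate block, with a trend of the prior variance, without both number 4 libraries and when any 1 library was left out (0 in each), and 31 with no minimum mean. The numbers of genes and transcripts at an unadjusted p under 0.05 rose to 3266 and 3282 without both number 4 libraries, a fit with 1 WT library that is assumed to vary like the others.

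Signs turned for members with small and with larger differences. Within number 4 alone, Bmpr1b was 0.13, Bmpr2 0.049, Smad9 0.20 and Smad5 -0.062, and within number 1 alone Acvr2b was -0.31. Leaving out 1 library at a time gave -0.20 to 0.47 for Acvr1 (Acvr1-203 -0.14 to 0.50), -0.72 to 0.059 for Bmpr2 and Bmpr2-201, -0.16 to 0.046 for Acvr2a and Acvr2a-201, -0.046 to 0.43 for Acvr2b and Acvr2b-205, -0.21 to 0.015 for Smad4 and Smad4-201, and -0.45 to 0.47 for Bmpr1b-205. The opposite sign came without WT replicate 1 for Acvr1, Bmpr2, Acvr2a and Smad4, without p75NTR-/- replicate 4 for Acvr2a, and without WT replicate 4 or p75NTR-/- replicate 2 for Acvr2b. With the replicate block, Acvr2b and Acvr2b-205 were -0.027 and Bmpr1b-205 was -0.087. Acvr1 was -0.060 on TPM, and Bmpr1b-205 was -0.0004 under TMM scaling and -0.51 without both number 4 libraries. The causes were not tested. Bmpr1a and Smad1 stayed negative in all 16 alternatives, Smad1 between -0.73 and -0.07. Bmpr1a lay between -0.71 (limma on TPM, unadjusted p = 0.0065, adjusted p = 0.94) and -0.13 (number 4 alone). For Bmpr1a this is no separate support. Both WT libraries lay above each p75NTR-/- library, so leaving out libraries could not turn its sign. The minimum means cannot change its difference at all. Of its mean of 156 TPM, 103 came from Bmpr1a-204, which rests on few counts.

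Percent of the 10 members' summed level, given as summed TPM, then count per kilobase, then TPM of the leading transcript, was 41.2, 22.8 and 16.8 for Bmpr1a, 17.0, 11.9 and 13.6 for Bmpr1b, and 3.15, 7.58 and 4.29 for Acvr1. It was 5.04, 6.30 and 8.58 for Bmpr2, 2.30, 3.04 and 3.89 for Acvr2a, and 0.22, 0.42 and 0.37 for Acvr2b. It was 7.18, 14.3 and 12.2 for Smad1, 16.1, 16.2 and 27.0 for Smad5, 0.36, 0.36 and 0.61 for Smad9, and 7.49, 17.1 and 12.7 for Smad4. With a mean of at least 50, the list median of inhibitory Smads and Smad regulators moved from -0.14 to -0.12 and that of BMP target genes from -0.38 to 0.10.

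Replicate numbers 1 and 4 occur under both labels, with a correlation of deviations of 0.256 for number 1 and 0.476 for number 4. The deviations of the 2 WT libraries are exact opposites. The crossed pairs therefore give -0.476 (WT 1 with p75NTR-/- 4) and -0.256 (WT 4 with p75NTR-/- 1), and the values are not independent. By median absolute log2 difference, the 2 libraries of number 1 were the least alike of all pairs (0.346). The labels call the WT cells litter mates but tie no number to a litter or day, and 2 pairs are too few to settle the pairing from these values, so the block stayed an alternative. It left 0 genes called. The planned edgeR and DESeq2 tests were not run. Smad9, Acvr2b and the short transcripts rest on few counts.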

Other observations

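Smad3, which carries TGF-beta and activin signals to Smad4, had 347 and 915 normalized counts in the libraries labelled WT and 281, 326 and 953 in those labelled p75NTR-/-. Both replicate 4 libraries were thus above the other 3, as were 23.0% of genes of mean 50 or more. Flt1, a VEGF receptor from the endothelial list, was also highest in both of them, with 31.4 and 213 against 30.7, 33.6 and 242 normalized counts. Hes5, a Notch target and progenitor marker, was high in WT replicate 1 (546 normalized counts) and in p75NTR-/- replicate 2 (222), and was 25.0 to 43.5 in the other 3 libraries. Acta2, from the mural list, had 52.0 and 59.3 against 249, 168 and 63.4 normalized counts. It was higher without overlap, as were 7.76% of genes of mean 50 or more.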
